A study of Mus musculus with 12 samples.

Results

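The transcriptional response of 3T3 cells, a mouse fibroblast cell line, to extracellular vesicles (EVs) of cancer cells with a CRIPTO knockdown is described here over all genes. The donor cells were MDA-MB-468, a human breast cancer line, and the label of the knockdown group is shCr. Of the 12 libraries of the study, 6 entered the comparison: 3 of fibroblasts exposed to shCr EVs for 24 h and 3 of untreated fibroblasts. A further 3 libraries of fibroblasts exposed for the same time to EVs of control donor cells (shCon) served as the closest other exposure, and the remaining 3, exposed to EVs of CRIPTO-overexpressing donor cells (CrOE), entered only the shared model. All groups were the same cell line with no allele or transgene of its own, and the alteration lay in the donor cells. The labels name no mock exposure or EVs of non-tumour cells, so the untreated group differed from the shCr group by all that came with the EVs. They also do not say whether the 3 libraries of a group were separate cultures, and the p-values measure the spread between these libraries, which may be technical.

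EVs are membrane-bound particles that carry protein, RNA and lipid from one cell to another and are taken up largely by endocytosis, which delivers much of their cargo to lysosomes. CRIPTO is a cell-surface protein that acts as a co-receptor for Nodal and related ligands of the TGF-beta family. Fibroblasts near a tumour can become activated: they then contract by smooth-muscle actin, lay down collagen and other matrix, and secrete cytokines. Other programmes read below are the interferon response, in which signalling from the interferon receptors switches on antiviral genes, the integrated stress response, in which ATF4 switches on genes of amino acid supply, and the sterol response, in which SREBP factors switch on cholesterol and fatty acid synthesis.

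Levels are given as CPM, a gene's counts as a share of the scaled total of its library, in the order of the replicate numbers. Levels of different genes are not compared, since the counts are not divided by gene length. Differences are log2 fold changes, shCr EVs minus untreated, with a standard error (SE) and a p-value from edgeR's quasi-likelihood test adjusted by Benjamini-Hochberg over 14279 tested genes. A gene was called where that adjusted p-value was under 0.05. The untreated libraries held 25960054 to 27189953 estimated counts and the shCr libraries 28734910 to 37774020. Mitochondrially encoded genes took 0.495% to 1.64% of the counts in untreated libraries and 0.622% to 1.70% after shCr EVs. The first principal component, 56% of the variance of the 6 libraries, separated the groups (-36.6 to -25.4 against 27 to 36). The second, 20.9%, set shCr library 1 (34.8) apart from shCr libraries 2 and 3 (-10.3 and -17.5). It also spread the untreated libraries, with library 2 (-23.1) apart from libraries 1 and 3 (12.9 and 3.23). Within each group a lower score on it went with a higher mitochondrial share, and the reason was not tested. Without shCr library 1 the count of called genes was 6698, and the counts below that this library moved by over 1.5 times are given with and without it. Tdgf1, the mouse gene of CRIPTO, had 1, 3 and 2 counts in untreated libraries and 0, 1 and 0 after shCr EVs, none above the detection floor of 3 counts. The knockdown itself lay in human donor cells, whose RNA was not analysed here.

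Exposure to shCr EVs moved the expression of 5320 genes, 37.3% of those tested, with 2632 higher (18.4%) and 2688 lower (18.8%). The median log2 fold change over all genes tested was 0.02 and the standard deviation 0.60. A change of at least 2-fold was found in 897 called genes, 393 higher and 504 lower, and a change of at least 4-fold in 74 higher and 127 lower. Genes of DNA replication and mitosis and contractile genes lay low after shCr EVs, and antiviral genes, MHC class I genes, ATF4 targets, sterol and fatty acid synthesis and lysosomal genes lay high. In the model of only the 2 groups the count was 3754. The CPM of the groups did not overlap in 5982 of all genes tested (41.9%). Groups that stand apart, given for single genes below, are therefore common here.

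**Figure D1:**
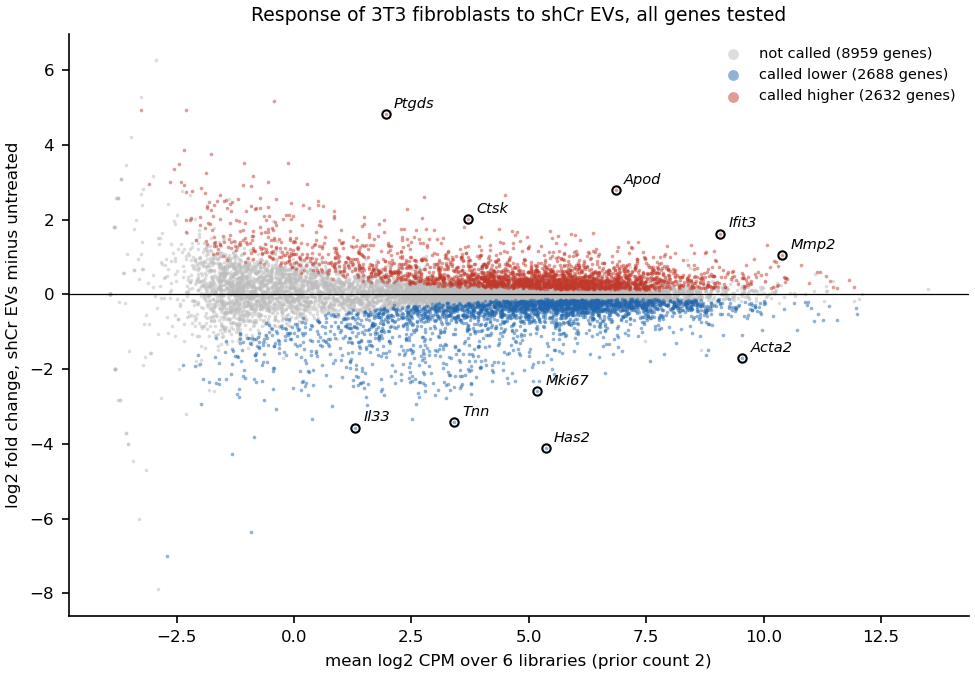
Log2 fold change (shCr EVs minus untreated) against the mean log2 CPM over the 6 libraries for the 14279 genes tested. Red points are the 2632 genes called higher, blue points the 2688 called lower and grey points the others; circled genes include Ptgds at 4.82 and Has2 at -4.12.

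The steepest rises among genes with a mean log2 CPM of at least 1 were not in the lists of known programmes alone. Ptgds, the lipocalin-type synthase of prostaglandin D2, was at 0.732, 0.6098 and 0.736 CPM in untreated cells and at 22.03, 19.1 and 18 CPM after shCr EVs (log2 fold change 4.82, SE 0.16, adjusted p = 1.18e-09). Apod, a secreted lipocalin that binds lipids and rises in quiescent fibroblasts, had 49.4, 36.8 and 46.4 CPM against 353, 255 and 314 CPM (log2 fold change 2.80, SE 0.13, adjusted p = 7.54e-09). In both genes every shCr library lay far above every untreated one. The rule for the steepest rises and falls kept only genes without overlap between the groups, so a lack of overlap in them is no added support. Ces1a, a carboxylesterase, went from 10.3, 7.699 and 8.79 CPM to 62.4, 54.8 and 53.3 CPM (log2 fold change 2.67, SE 0.10, adjusted p = 2.05e-09). Further down the same order came P2rx3, an ATP-gated ion channel (2.60), Pdzk1ip1 (2.29), Trp53i11 (2.06), Nyx, a small leucine-rich proteoglycan (2.04), and Ctsk, the collagen-cutting lysosomal protease cathepsin K (2.01). The other rises were Tmtc1, an O-mannosyltransferase (1.98), Camk2a, a calcium-dependent kinase (1.88), Elmo1, an engulfment adaptor (1.79), Dusp27 (1.76), Slc4a4, a bicarbonate cotransporter (1.76), and Dmxl2 (1.76). Gm43302 also passed the rule (1.82), but its sequence is wholly shared with other transcripts, so its counts are uncertain.

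Has2, the main hyaluronan synthase of fibroblasts, showed the steepest fall by the same rule, from 168, 175 and 171 CPM to 11.7, 10.7 and 7.53 CPM (log2 fold change -4.12, SE 0.13, adjusted p = 1.18e-09). Its 3 untreated libraries lay close together, and the shCr libraries held a small remainder of that level. Il33, an alarmin of the IL-1 family, fell from 8.17, 6.403 and 9.79 CPM to 0.776, 0.769 and 0.5301 CPM (log2 fold change -3.56, SE 0.26, adjusted p = 3.57e-07). Tnn, the matrix glycoprotein tenascin-N, fell from 41.2, 16.4 and 50.7 CPM to 3.67, 3.65 and 2.92 CPM (log2 fold change -3.41, SE 0.34, adjusted p = 5.63e-06), with untreated library 2 well below libraries 1 and 3 yet above all shCr libraries. Fgf23, a phosphate-regulating hormone, fell from 17.4, 22.1 and 14.5 CPM to 2.12, 1.57 and 1.67 CPM (log2 fold change -3.34, SE 0.18, adjusted p = 3.39e-08). Aoc3, an amine oxidase, had a log2 fold change of -2.76. The other 10 of the 15 steepest falls were genes of cell division or DNA repair: Pbk, Nuf2, Fancd2, Kif18b, Cenpf, Kif14, Plk1, Bub1, Mki67 and Kif15, between -2.96 for Pbk and -2.58 for Kif15.

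Genes of cell division fell almost without exception. All 45 tested genes of the mitosis and spindle list were called lower, with a median log2 fold change of -2.11, and 43 of them by at least 2-fold. Of 44 genes of DNA replication and S phase, 43 were called lower and 0 higher, with a median of -1.03, and the one without a call was E2f1. The summed level of the mitosis list was 1606 to 1717 CPM in untreated libraries and 503.4 to 517.7 CPM after shCr EVs, and that of the replication list 1319 to 1394 CPM against 700.5 to 716.2 CPM. With 1 untreated or shCr library left out, 45 mitosis genes and 42 to 43 replication genes were called lower. In bulk RNA, fewer cycling cells and less RNA per cycling cell cannot be told apart.

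Mitotic genes are held off in resting cells through the cell cycle homology region (CHR), bound by the MuvB complex, searched here by the core letters TTTGAA on either strand. Among RefSeq promoter windows of 300 bases (250 before to 50 after the start, build GRCm38.p6), 27 of the 37 mitosis genes found (73%) held the core in at least 1 window, against 20.2% of all 27025 genes with a window, 14.4% of those tested here and 13.9% of 36 replication genes. The authors' build is named as mm39, so these windows are used for their letters only. Shown as examples of mitosis genes that were called lower are windows of Mki67, the proliferation marker Ki-67 (chr7:135716470-135716515, minus strand), Ccnb2, cyclin B2 (chr9:70421696-70421741, minus strand), and Cdc20, the activator of the anaphase-promoting complex (chr4:118437344-118437381, minus strand), with the core in capitals:
Mki67: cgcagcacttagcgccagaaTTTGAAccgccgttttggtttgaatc
Ccnb2: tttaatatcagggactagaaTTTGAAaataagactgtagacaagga
Cdc20: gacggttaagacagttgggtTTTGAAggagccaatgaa
The Mki67 stretch holds another core further on, left in small letters. A match is a description of letters and not evidence of binding.

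Mki67 was at 96.2, 72.2 and 98.3 CPM in untreated cells and 14.2, 15.4 and 14.8 CPM after shCr EVs (log2 fold change -2.59, SE 0.12, adjusted p = 8.95e-09). Plk1, a kinase that drives mitotic entry, fell from 32.1, 35.2 and 35.9 CPM to 4.62, 5.45 and 6.18 CPM (log2 fold change -2.66, SE 0.10, adjusted p = 2.05e-09). Top2a, the topoisomerase that untangles chromosomes, fell from 108, 93.1 and 104 CPM to 20.8, 21.6 and 21.1 CPM (log2 fold change -2.26, SE 0.074, adjusted p = 1.18e-09). In each of these genes the groups lay far apart, and the 3 shCr libraries were close together. Cdk1, the kinase of mitotic entry, fell less steeply, from 42.8, 39.03 and 40.7 CPM to 14.9, 13.4 and 13.2 CPM (log2 fold change -1.57, SE 0.073, adjusted p = 8.95e-09), and Ccnb1, its cyclin partner, had a log2 fold change of -2.11.

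Among replication genes Cdc6, which loads the MCM helicase onto origins, fell from 4.36, 4.803 and 5.11 CPM to 0.388, 0.737 and 0.636 CPM (log2 fold change -2.99, SE 0.21, adjusted p = 2.43e-07). Clspn, Tk1 and Mcm10 followed, with log2 fold changes of -2.52, -2.46 and -2.28. Rrm2, the inducible subunit of ribonucleotide reductase, fell from 20.5, 18.98 and 23.5 CPM to 6.59, 6.31 and 5.83 CPM (log2 fold change -1.75, SE 0.093, adjusted p = 2.68e-08). Mcm2, a helicase subunit, fell by less, from 60.3, 68.7 and 63.8 CPM to 32.6, 34.4 and 36.5 CPM (log2 fold change -0.90, SE 0.064, adjusted p = 3.44e-07). Pcna, the sliding clamp of DNA polymerase, fell by a small step (-0.29), and its groups did not overlap. In the list of CDK inhibitors, p53 targets and D cyclins 16 of 32 genes were called higher and 4 lower, with a median of 0.21. Cdkn1a, the CDK inhibitor p21, was at 331, 349 and 325 CPM and then 433, 434 and 418 CPM (log2 fold change 0.35, SE 0.049, adjusted p = 0.000103). Gadd45a, a stress-induced growth arrest gene, rose from 27.6, 28.01 and 24.2 CPM to 77.5, 73.2 and 77.4 CPM (log2 fold change 1.52, SE 0.065, adjusted p = 5.03e-09). The other rises included Pmaip1, a pro-apoptotic BH3 gene (0.70), and Cdkn2c, an inhibitor of CDK4 and CDK6 (0.60). Ccnd1, cyclin D1, fell from 281, 278 and 305 CPM to 162, 161 and 164 CPM (log2 fold change -0.83, SE 0.062, adjusted p = 4.59e-07), and Cdkn1b, the CDK inhibitor p27, made no call (0.023).

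Antiviral genes rose together. Of 47 tested interferon-stimulated genes 40 were called higher and 3 lower, with a median log2 fold change of 0.74 and 14 rises of at least 2-fold. Their summed level was 6773 to 7138 CPM in untreated libraries and 8860 to 11240 CPM after shCr EVs. Of 20 genes of MHC class I antigen presentation, which displays peptides to cytotoxic T cells, 16 were called higher and 0 lower, with a median of 0.62. With 1 untreated or shCr library left out, 37 to 41 interferon-stimulated genes and 15 to 16 MHC class I genes were called higher.

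Many antiviral genes carry the interferon-stimulated response element (ISRE), searched here as GAAA, any 2 bases and GAAA on either strand. It was found in the 300-base RefSeq window of 17 of 35 interferon-stimulated genes (48.6%) and of 5 of 17 MHC class I genes (29.4%), against 3.99% of all genes with a window. Windows are shown for examples picked among genes called higher. The match is in capitals and reads as TTTC twins where it lies on the other strand: Ifit3 (chr19:34583387-34583436, plus strand), Isg15 (chr4:156200861-156200910, minus strand), Rsad2 (chr12:26456543-26456592, minus strand) and B2m (chr2:122147528-122147577, plus strand):
Ifit3: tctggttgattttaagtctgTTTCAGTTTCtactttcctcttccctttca
Isg15: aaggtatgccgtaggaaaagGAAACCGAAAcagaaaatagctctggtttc
Rsad2: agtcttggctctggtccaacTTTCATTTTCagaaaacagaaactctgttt
B2m: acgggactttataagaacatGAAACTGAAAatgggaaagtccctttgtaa
The Ifit3 and Rsad2 matches lay on the strand opposite to the gene, and those of Isg15 and B2m on the same strand. Further matches in the Isg15 stretch overlap the marked one and are partly in small letters. Ifitm2, which was called lower, also held a match. Whether calls went with a match was not tested, and a match is not evidence of binding.

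Ifit3, an RNA-binding antiviral protein, rose from 322, 341 and 262 CPM to 1015, 744 and 1105 CPM (log2 fold change 1.63, SE 0.15, adjusted p = 4e-06). Rsad2, the radical SAM enzyme viperin, rose from 18.8, 18.6 and 17.6 CPM to 51.3, 40.8 and 68.1 CPM (log2 fold change 1.54, SE 0.15, adjusted p = 3.65e-06). Oas2, which makes the 2'-5' oligoadenylates that activate RNase L, rose from 13.1, 17.3 and 12.3 CPM to 34.4, 38.2 and 64.9 CPM (log2 fold change 1.69, SE 0.21, adjusted p = 4.15e-05). The shCr libraries differed more among themselves here than in the cell cycle genes: library 2 was the lowest in Ifit3 and Rsad2 and library 3 the highest, while every one of them lay above the untreated range. Isg15, a ubiquitin-like modifier, rose from 116, 129 and 105 CPM to 243, 171 and 232 CPM (log2 fold change 0.88, SE 0.14, adjusted p = 0.000236). Irf7, a factor that amplifies the response, had a log2 fold change of 0.88. Against this direction Ifitm1, a membrane protein that restricts viral entry, fell from 21.8, 15.9 and 21.9 CPM to 4.16, 4.77 and 5.195 CPM (log2 fold change -2.07, SE 0.22, adjusted p = 9.75e-06). The other falls of the list were Ifi27 (-1.05) and Ifitm2 (-0.37).

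H2-K1, a classical MHC class I heavy chain, rose from 221, 238 and 211 CPM to 563, 516 and 585 CPM (log2 fold change 1.31, SE 0.085, adjusted p = 1.45e-07). H2-D1, the other classical chain measured, rose from 330, 346 and 319 CPM to 778, 683 and 765 CPM (log2 fold change 1.16, SE 0.082, adjusted p = 2.9e-07). B2m, the light chain that all of them need, rose from 892, 898 and 859 CPM to 1853, 1455 and 1597 CPM (log2 fold change 0.89, SE 0.085, adjusted p = 4.08e-06). The groups of these 3 genes stood clear of each other. Tap1, a subunit of the peptide transporter (0.60), and Psmb8, a subunit of the immunoproteasome (0.59), also rose. Of 18 sensors of foreign nucleic acid and their adaptors 8 were called higher and 2 lower, a count of rises that went to 5 without untreated library 1, to 4 without untreated library 3 and to 5 without shCr library 3. Zbp1, a sensor of Z-form nucleic acid (1.02), Ifih1, the RNA sensor MDA5 (0.62), and Ddx58, the RNA sensor RIG-I (0.37), rose. Tmem173, the adaptor STING of the DNA-sensing branch, fell from 68.98, 71.4 and 68.98 CPM to 36.5, 36.7 and 35.2 CPM (log2 fold change -0.95, SE 0.067, adjusted p = 2.86e-07), and Mb21d1, the DNA sensor cGAS, had a log2 fold change of -0.76.

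**Figure D2:**
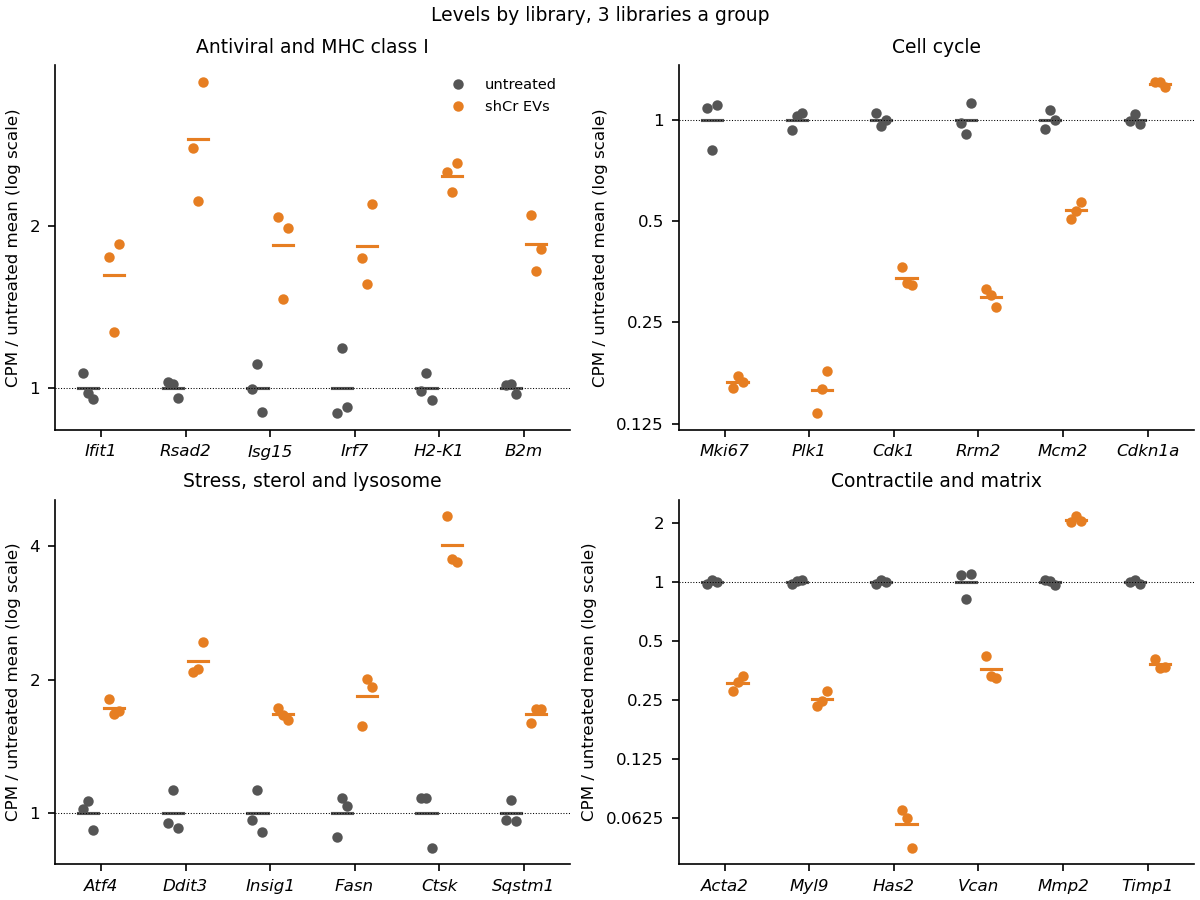
Level of 24 genes in each of 3 untreated (grey) and 3 shCr EV (orange) libraries, as CPM divided by the untreated mean on a log axis, with short bars at the group means. Every shCr library of Rsad2 lies above, and every shCr library of Has2 and Mki67 below, all untreated libraries.

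The ATF4 branch of the stress response rose while most chaperones of the endoplasmic reticulum (ER) did not. Of 37 targets and members of the integrated stress response 28 were called higher and 2 lower, with a median of 0.70 and 11 rises of at least 2-fold. Of 29 ER chaperones and folding enzymes 6 were higher and 10 lower, with a median of -0.08, and without shCr library 1 the lower calls were 16. ER-associated degradation and its sensors gave 10 higher and 4 lower of 26. Cytosolic and mitochondrial heat-shock chaperones gave 4 higher and 10 lower of 30, with 16 lower without shCr library 1. Their share called was 46.7%, beside 37.3% of all genes tested.

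ATF4 binds amino acid response elements, searched as TGATG, any base and AA, and ER chaperone genes carry ER stress response elements, searched as CCAAT and CCACG with 9 bases between, both on either strand. The first was in the windows of 10 of 32 ATF4 list genes (31.2%) against 4.51% of all genes with a window, and the second in 8 of 26 ER folding genes (30.8%) against 0.137%. The windows shown are examples picked with their calls known, Asns and Chac1 called higher and Hspa5 and Calr not: Asns, asparagine synthetase (chr6:7693210-7693252, minus strand), Chac1, which degrades glutathione (chr2:119351029-119351076, plus strand), Hspa5, the ER chaperone BiP (chr2:34772005-34772063, plus strand), and Calr, calreticulin (chr8:84847055-84847113, minus strand), with the match in capitals:
Asns: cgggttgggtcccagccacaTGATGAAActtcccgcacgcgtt
Chac1: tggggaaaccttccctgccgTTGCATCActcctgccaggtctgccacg
Hspa5: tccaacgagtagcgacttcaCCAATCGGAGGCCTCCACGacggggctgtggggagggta
Calr: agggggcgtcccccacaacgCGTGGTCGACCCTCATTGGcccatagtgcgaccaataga
Each is written on the strand of its gene, and the matches in Chac1 and Calr lie on the opposite strand. Whether calls went with either element was not tested, and a match is not evidence of binding.

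Atf4 itself rose from 284, 298 and 255 CPM to 505, 467 and 475 CPM (log2 fold change 0.79, SE 0.06, adjusted p = 5.34e-07). Ddit3, the stress factor CHOP, rose from 29.2, 34.5 and 28.4 CPM to 63.8, 64.97 and 74.7 CPM (log2 fold change 1.14, SE 0.083, adjusted p = 3.68e-07). Chac1 rose from 23.6, 30.3 and 19.5 CPM to 59.6, 55.6 and 66.5 CPM (log2 fold change 1.31, SE 0.13, adjusted p = 5.55e-06). The shCr libraries of these genes lay close together and above all untreated ones, of which library 2 was the highest. Slc7a11, the cystine importer, rose from 32.04, 38.2 and 31.9 CPM to 98.5, 79.7 and 83.1 CPM (log2 fold change 1.36, SE 0.11, adjusted p = 9.47e-07), Trib3, a feedback inhibitor, had 1.16 and Asns 0.72. Of 20 cytosolic aminoacyl-tRNA synthetases, which charge tRNAs and include ATF4 targets, 10 were called higher and 4 lower, led by Sars (0.56) and Aars (0.51).

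Hspa5 was at 674, 652 and 647 CPM and 705, 580 and 593 CPM, with overlapping groups and no call (log2 fold change -0.071, adjusted p = 0.43), and it was called lower without shCr library 1. Calr fell from 1479, 1407 and 1460 CPM to 1027, 938 and 925 CPM (log2 fold change -0.59, SE 0.052, adjusted p = 1.99e-06). Pdia4 (-0.58) and Pdia6 (-0.55), disulfide isomerases, and Hsp90b1, the chaperone GRP94 (-0.41), fell as well. Ero1l, the oxidase that recharges disulfide isomerases, went the other way, from 71.7, 73.1 and 72.7 CPM to 146, 121 and 125 CPM (log2 fold change 0.85, SE 0.068, adjusted p = 8.76e-07). Dnajb9, a cochaperone of BiP (0.48), and Herpud1, a scaffold of ER-associated degradation (0.42), rose. Among heat-shock genes Hspa8, the constitutive cytosolic HSP70, rose (0.46) and Hsph1, an HSP110 nucleotide exchange factor, fell (-0.49).

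Sterol synthesis rose as a group. Of 30 genes of cholesterol synthesis, uptake and SREBP2 control 28 were called higher and 0 lower, with a median of 0.54. The summed level was 8738 to 9492 CPM in untreated libraries and 12940 to 13920 CPM after shCr EVs. Fatty acid synthesis and desaturation gave 15 higher and 1 lower of 21, with a median of 0.56. The sterol regulatory element, searched as TCAC, 1 base and CCAC, was in the window of 1 of 20 cholesterol genes found (5%) against 1.44% of all genes with a window. That gene was Hmgcs1, HMG-CoA synthase (chr13:119690194-119690242, plus strand), shown with the match in capitals:
Hmgcs1: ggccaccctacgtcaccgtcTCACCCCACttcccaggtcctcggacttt

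Hmgcs1 itself rose by a small step, from 727, 791 and 718 CPM to 952, 856 and 850 CPM (log2 fold change 0.25, SE 0.066, adjusted p = 0.00928), and this call was lost without untreated library 1 (adjusted p = 0.0532). Mvd, which decarboxylates mevalonate diphosphate, rose from 276, 344 and 268 CPM to 642, 659 and 659 CPM (log2 fold change 1.14, SE 0.08, adjusted p = 2.78e-07). Tm7sf2, a sterol reductase, rose from 71.4, 84.1 and 74.4 CPM to 184, 184 and 186 CPM (log2 fold change 1.27, SE 0.076, adjusted p = 7.18e-08). Both had shCr libraries nearly level with each other. Insig1, the ER anchor that senses sterol, rose from 398, 466 and 373 CPM to 714, 685 and 671 CPM (log2 fold change 0.74, SE 0.072, adjusted p = 4.89e-06). Fasn, fatty acid synthase, rose from 805, 985 and 943 CPM to 1432, 1831 and 1750 CPM (log2 fold change 0.88, SE 0.089, adjusted p = 7.21e-06). Scd1, the desaturase that makes oleate, rose from 650, 640 and 647 CPM to 1353, 1195 and 1171 CPM (log2 fold change 0.94, SE 0.06, adjusted p = 1.2e-07), and Acss2, which makes acetyl-CoA from acetate, by 1.14. Srebf1, which encodes an SREBP factor, made no call (-0.24). Acsl1, an acyl-CoA synthetase, was the fall of the fatty acid list (-0.52).

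Lysosome and autophagy genes rose broadly and mostly by small steps: 33 of 44 were called higher and 3 lower, with a median of 0.36. Their summed level was 16280 to 17480 CPM in untreated libraries and 22800 to 24400 CPM after shCr EVs. Ctsk rose from 6.99, 7.01 and 5.41 CPM to 30.3, 24.3 and 23.8 CPM (log2 fold change 2.01, SE 0.12, adjusted p = 6.13e-08), the only rise of the list of at least 2-fold. Ctsd, the aspartic protease cathepsin D, rose from 1358, 1382 and 1314 CPM to 2400, 2311 and 2238 CPM (log2 fold change 0.78, SE 0.049, adjusted p = 1.15e-07). Hexa, a subunit of beta-hexosaminidase, rose from 225, 243 and 212 CPM to 468, 417 and 408 CPM (log2 fold change 0.93, SE 0.067, adjusted p = 3.67e-07). All 3 had groups that stood apart. Sqstm1, the autophagy receptor p62 (0.75), and Lamp1, a lysosomal membrane protein (0.50), rose, as did Mitf, a regulator of lysosomal genes (0.82), while Tfeb, its relative, was lower (-0.34). Genes of endocytosis and vesicle uptake showed 3 higher and 6 lower of 34, with 13 lower without shCr library 1. Their share of calls (26.5%) was under that of all genes tested (37.3%). Cav1, the coat protein of caveolae, fell from 347, 340 and 345 CPM to 197, 179 and 190 CPM (log2 fold change -0.87, SE 0.047, adjusted p = 2.9e-08), and Scarb1, a scavenger receptor for lipoproteins, rose (0.69).

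Contractile genes fell. Of 28 smooth-muscle and contractile genes of myofibroblasts 23 were called lower and 0 higher, with a median of -0.52 and 7 falls of at least 2-fold. Acta2, smooth-muscle actin and the usual marker of myofibroblasts, fell from 1321, 1382 and 1360 CPM to 377, 415 and 448 CPM (log2 fold change -1.71, SE 0.062, adjusted p = 2.05e-09). Myl9, a regulatory myosin light chain, fell from 87.7, 90.2 and 91.3 CPM to 20.9, 21.98 and 24.7 CPM (log2 fold change -1.99, SE 0.07, adjusted p = 1.36e-09). Tagln, the actin-bundling protein SM22, fell from 213, 219 and 212 CPM to 78.2, 73.1 and 74 CPM (log2 fold change -1.52, SE 0.048, adjusted p = 1.18e-09). Each untreated library of these genes held well over the level of any shCr library. Actg2, enteric smooth-muscle actin (-2.21), and Cnn1, calponin (-2.83, at a low level), fell too, and Tpm1, a tropomyosin, by a smaller step (-0.64). Targets of YAP and TEAD were mixed, with 5 higher (8 without shCr library 1) and 8 lower of 23. Cyr61 (-0.60), Ctgf (-0.58) and Ankrd1 (-0.43), 3 widely used targets, were lower.

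Among matrix genes, lower and higher calls stood side by side in most lists. Of 35 collagen chains 3 were called higher and 9 lower, with a median of -0.13. The share called (34.3%) was near that of all genes tested (37.3%). Without shCr library 1 or with either of untreated libraries 2 and 3 left out the higher calls were 7, 5 and 5. Col1a2, a chain of type I collagen, fell from 4941, 4773 and 5045 CPM to 3217, 3639 and 3431 CPM (log2 fold change -0.52, SE 0.05, adjusted p = 4.4e-06). Col3a1 (-0.47) and Col1a1 (-0.36) fell by similar steps, the latter without a call in the model of only the 2 groups compared (adjusted p = 0.0543). Of 20 elastic fibre and lysyl oxidase genes 12 were lower and 1 higher, with a median of -0.40. Ltbp2, a microfibril protein, fell from 374, 407 and 454 CPM to 116, 152 and 142 CPM (log2 fold change -1.59, SE 0.10, adjusted p = 9.15e-08), and Fbn1, fibrillin-1, by a smaller step (-0.53). Small leucine-rich proteoglycans and versican gave 4 higher and 6 lower of 15. Vcan, versican, fell from 821, 620 and 826 CPM to 318, 251 and 245 CPM (log2 fold change -1.48, SE 0.13, adjusted p = 1.44e-06), with no overlap between groups. Bgn, biglycan, had a log2 fold change of -0.70. In hyaluronan synthesis, breakdown and binding 7 of 15 genes were lower and 1 higher, and Tmem2, a cell-surface hyaluronidase (-1.04), and Cd44, the hyaluronan receptor (-0.29), fell along with Has2.

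Matricellular proteins, which sit in the matrix and signal to cells, gave 9 higher and 17 lower of 31. Spp1, osteopontin, fell from 817, 695 and 818 CPM to 285, 235 and 232 CPM (log2 fold change -1.63, SE 0.087, adjusted p = 2.78e-08). Tnc, tenascin-C, fell from 448, 407 and 481 CPM to 169, 188 and 181 CPM (log2 fold change -1.31, SE 0.064, adjusted p = 1.2e-08). Both had shCr libraries far below the untreated range. Postn, periostin, rose from 372, 322 and 384 CPM to 626, 580 and 518 CPM (log2 fold change 0.68, SE 0.084, adjusted p = 4.01e-05), and Sparcl1 (1.52) and Nid2, a basement membrane protein (1.13), rose as well, while Fn1, fibronectin, made no call (-0.19). Matrix proteases and their inhibitors gave 12 higher and 12 lower of 39. Mmp2, gelatinase A, rose from 960, 954 and 907 CPM to 1895, 2040 and 1932 CPM (log2 fold change 1.06, SE 0.052, adjusted p = 1.34e-08). Mmp13, a collagenase, rose from 16.8, 14.1 and 14.6 CPM to 56.3, 42.5 and 38.4 CPM (log2 fold change 1.59, SE 0.13, adjusted p = 1.13e-06), and Mmp14, the membrane protease that activates pro-MMP2, by 0.51. Timp1, a secreted inhibitor of metalloproteinases, fell from 194, 200 and 191 CPM to 78.3, 71.2 and 71.9 CPM (log2 fold change -1.40, SE 0.053, adjusted p = 2.05e-09), and Timp3, the matrix-bound inhibitor, had -1.58. Integrins, syndecans and glypicans gave 7 higher and 8 lower of 28 (53.6% called, beside 37.3% of all genes tested).

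**Figure D3:**
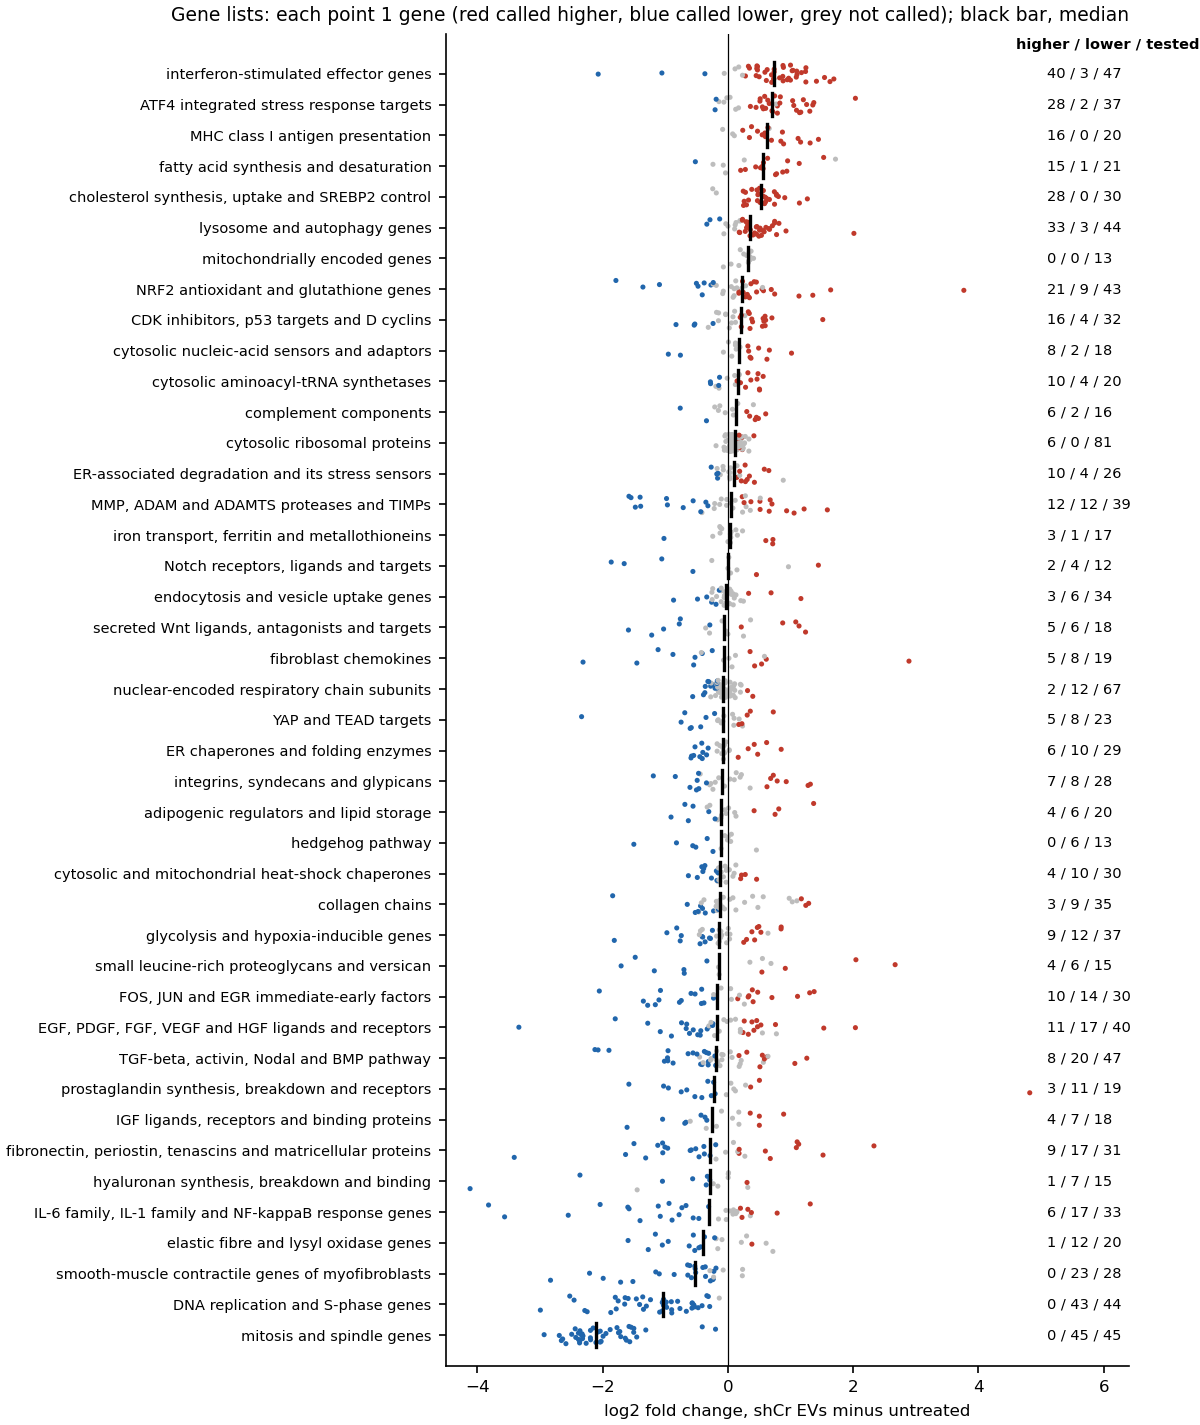
Log2 fold change of each tested gene in the gene lists, with black bars at the medians and the numbers called higher, called lower and tested at the right. Of the lists plotted, the mitosis list lies lowest with a median of -2.11 and the interferon list highest with 0.74, beside 18.4% of all genes tested called higher and 18.8% called lower.

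In the TGF-beta, activin, Nodal and BMP pathway 20 of 47 genes were called lower and 8 higher, with a median of -0.19. Its steepest falls were the Id genes, inhibitors of differentiation factors and direct BMP targets. Id3 fell from 89.1, 105 and 96.7 CPM to 20.8, 22.8 and 23.03 CPM (log2 fold change -2.12, SE 0.073, adjusted p = 1.36e-09). Id2 went from 11.97, 14.9 and 14.3 CPM to 3.35, 3.17 and 3.26 CPM (log2 fold change -2.07, SE 0.13, adjusted p = 1.19e-07) and Id1 had -1.90, each with groups that lay apart. Smad7, a feedback inhibitor, had -0.63. Fst, the activin antagonist follistatin, fell (-1.01), while Bambi, a decoy receptor (1.26), and Tgfb1, the ligand (0.51), rose. The hedgehog pathway gave 6 lower and 0 higher of 13 (46.2% called, beside 37.3% of all genes tested). Hhip, a hedgehog target that binds the ligand, fell from 42.2, 35.3 and 51.4 CPM to 17.6, 15.1 and 13.04 CPM (log2 fold change -1.50, SE 0.14, adjusted p = 3.24e-06), and Gli2, a transcription factor of the pathway, by a smaller step (-0.51). Wnt ligands, antagonists and targets gave 5 higher and 6 lower of 18, with Sfrp1, a secreted antagonist, at -1.59 and Axin2, a target, at 0.88. In the Notch list 4 of 12 were lower and 2 higher (50% called), with the targets Hey1 (-1.86) and Hes1 (-1.66) among the falls. Hey1 was at a low level (means of 0.348 CPM untreated and 0.093 CPM after shCr EVs).

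Growth factor ligands and receptors gave 17 lower and 11 higher of 40, with 7 higher without untreated library 1 or 3 and 4 higher in a model of only the 2 groups compared. Egfr, the EGF receptor, fell from 147, 113 and 157 CPM to 80.2, 74.4 and 68.6 CPM (log2 fold change -0.90, SE 0.10, adjusted p = 1.35e-05). Pdgfra, the PDGF receptor alpha, was lower (-0.43) and Pdgfrb, the beta receptor, higher (0.42). Angptl4, a lipoprotein lipase inhibitor, fell from 23.7, 17.2 and 24.4 CPM to 8.28, 5.96 and 4.72 CPM (log2 fold change -1.80, SE 0.18, adjusted p = 5.88e-06). Vegfa, an angiogenic ligand, was called higher (0.53) although its groups overlapped, and lost the call in 6 of the alternatives. Of 18 genes of the IGF axis 7 were lower and 4 higher, with Igfbp7, a binding protein, at -1.04. FOS, JUN and EGR immediate-early genes and their feedback phosphatases gave 10 higher and 14 lower of 30. Egr1, a serum-induced factor, fell from 38.3, 41.5 and 38.8 CPM to 13.01, 17.8 and 15.6 CPM (log2 fold change -1.35, SE 0.10, adjusted p = 3.03e-07). Fos (-1.28) and Dusp6, a phosphatase induced by ERK (-1.08), fell, whereas Dusp4, another MAP kinase phosphatase (1.38), and Klf4, a factor of growth arrest (1.11), rose.

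Secreted inflammatory genes held Il6 and Il1rn among the falls and Saa3 and C3 among the rises. Of 33 genes of the IL-6 and IL-1 families and the NF-kappaB response 17 were called lower and 6 higher, with a median of -0.31 and 3 higher without untreated library 1 or 3. Il6 fell from 16.7, 21.2 and 14.97 CPM to 7.79, 6.12 and 6.15 CPM (log2 fold change -1.40, SE 0.13, adjusted p = 4.3e-06). Il1rn, the IL-1 receptor antagonist, fell from 21.02, 16.7 and 22.3 CPM to 3.98, 3.56 and 2.78 CPM (log2 fold change -2.55, SE 0.14, adjusted p = 2.71e-08), and Icam1, a leukocyte adhesion molecule, by a step of -1.58. All shCr libraries of both cytokines lay below the untreated ones. Tnfsf11, the osteoclast cytokine RANKL, had -3.82 at a low level (1.66 ± 0.197 CPM in untreated cells). Saa3, an acute-phase protein, rose from 737, 704 and 641 CPM to 2265, 1568 and 1343 CPM (log2 fold change 1.32, SE 0.16, adjusted p = 3.14e-05), highest in shCr library 1. Of 19 chemokines 8 were lower and 5 higher. Ccl2 (0.067) and Cxcl1 (0.017), which attract monocytes and neutrophils, made no call, and their groups overlapped. Cxcl5, a neutrophil chemokine, fell from 1282, 1030 and 1259 CPM to 1002, 746 and 735 CPM (log2 fold change -0.52, SE 0.12, adjusted p = 0.00371), Ccl9 had -1.45, and Ccl5, a T cell chemokine, was higher (0.43).

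Of 16 complement genes 6 were called higher and 2 lower (50% called, beside 37.3% of all genes tested). C3, the central component, rose from 1821, 1933 and 2001 CPM to 2798, 3041 and 2910 CPM (log2 fold change 0.60, SE 0.08, adjusted p = 6.57e-05), C1s1, a protease of the first component, had 0.46, and Serping1, its inhibitor, fell (-0.76). In prostaglandin synthesis, breakdown and receptors 11 of 19 genes were lower and 3 higher. Ptgs2, the inducible cyclooxygenase, fell from 141, 134 and 152 CPM to 107, 95.2 and 94.2 CPM (log2 fold change -0.53, SE 0.06, adjusted p = 1.94e-05), and Ptgs1, the constitutive one, had -0.42. Ptgis, prostacyclin synthase, fell by a step of -0.74 and Ptgfr, a prostaglandin receptor, of -1.58, while Ptgds went the other way as given above.

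Metabolic and redox genes moved in both directions. NRF2 antioxidant and glutathione genes gave 21 higher and 9 lower of 43, with 5 lower without shCr library 2. Gclc, the catalytic subunit of glutathione synthesis, rose from 15.96, 16.5 and 14.6 CPM to 33.6, 36.4 and 33.5 CPM (log2 fold change 1.14, SE 0.058, adjusted p = 1.84e-08). Sod3, the extracellular superoxide dismutase, fell from 369, 301 and 401 CPM to 107, 104 and 98.9 CPM (log2 fold change -1.79, SE 0.087, adjusted p = 1.2e-08). Gpx1, a glutathione peroxidase, fell from 220, 197 and 195 CPM to 112, 89 and 86.1 CPM (log2 fold change -1.09, SE 0.089, adjusted p = 1.06e-06). The groups of these 3 genes did not touch. In glycolysis and hypoxia-inducible genes 12 of 37 were lower and 9 higher. Pfkfb3, which makes the activator of phosphofructokinase, fell from 68.03, 68.8 and 68.7 CPM to 19.04, 20.1 and 19.3 CPM (log2 fold change -1.81, SE 0.061, adjusted p = 1.18e-09), and Ldha, lactate dehydrogenase A, by a step of -0.74. Hif1a, the hypoxia factor, had -0.82.

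Nuclear-encoded respiratory chain subunits gave 12 lower and 2 higher of 67, a share of calls (20.9%) under that of all genes, and without shCr library 1 the lower calls were 43. Of 81 cytosolic ribosomal protein genes 6 were called higher and 0 lower (7.41% called), with 1, 0 and 1 higher without untreated library 1, untreated library 3 and shCr library 1 in turn, and 17 without shCr library 3. The 13 mitochondrially encoded genes tested gave 0 calls by edgeR and 0 by DESeq2 (0 at an unadjusted p under 0.05), with shares that overlapped between groups as given above. Adipogenic and lipid storage genes gave 4 higher and 6 lower of 20 (50% called, beside 37.3% of all genes tested). Pparg, the adipogenic master factor, was lower (-0.63) and Plin2, the coat of lipid droplets, rose from 102, 109 and 98.7 CPM to 177, 172 and 173 CPM (log2 fold change 0.75, SE 0.056, adjusted p = 4.84e-07). Iron and metal genes gave 3 higher and 1 lower of 17, a share of calls (23.5%) under that of all genes. Slc39a14, a zinc and iron importer, was at -1.02 and Ftl1, ferritin light chain, at 0.61. Zfas1, a host gene of small nucleolar RNAs, rose (0.97), most in shCr library 1.

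Marker genes were read to check the cell type. The 16 fibroblast markers were all measured, with a summed level of 24010 to 25670 CPM in untreated libraries and 19210 to 21080 CPM after shCr EVs, 10 of them called lower and 2 higher. Thy1, a surface marker of fibroblasts, fell from 367, 361 and 368 CPM to 241, 250 and 241 CPM (log2 fold change -0.58, SE 0.051, adjusted p = 1.93e-06). The 15 epithelial markers summed to 3.11 to 4.06 CPM in untreated libraries and 2.89 to 4.26 CPM after shCr EVs. Epcam was at 0 in every library, and the 4 tested gave 0 calls by edgeR and 0 by DESeq2 (1 at an unadjusted p under 0.05). These are mouse genes and the donor line was human, so they cannot show whether donor RNA was present. Leukocyte markers summed to 130.3 to 142.1 CPM and 176 to 247.9 CPM, with 2 of 7 called higher and 1 lower. Lyz2, lysozyme, rose from 50.3, 49.1 and 41.4 CPM to 186, 132 and 121 CPM (log2 fold change 1.64, SE 0.14, adjusted p = 1.44e-06), and Cd14 fell (-0.71), whereas the defining gene Cd3e was at 0 and Ptprc and Adgre1 at or near 0 in all 6 libraries. Endothelial markers summed to 2.48 to 3.37 CPM and 4.52 to 5.79 CPM, with Cldn5 at 0, and 2 of the 4 tested were called higher, Kdr (2.47) and Vwf (1.08), at means of 0.764 ± 0.232 CPM and 3.84 ± 0.773 CPM after shCr EVs. Adipocyte markers summed to 207.3 to 242.9 CPM and 178.9 to 234.4 CPM with Lep and Cidec at 0 and 2 of 4 tested called lower, Fabp4 (-0.91) and Pparg, and muscle markers to 2.09 to 3.28 CPM and 2.25 to 2.88 CPM with Myod1 at 0.

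A list of 14 tested fibroblast activation markers, taken over from an earlier analysis of these data and therefore no independent evidence, had 7 called lower and 3 higher, with a median of -0.27. Acta2, Tagln, Il6, Cxcl12 (-0.41), S100a4 (-0.38), Col1a1 and Ctgf were the lower ones and Postn, Tgfb1 and Pdgfrb the higher ones. Its direction was mixed.

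Next, the shCr group was compared directly with the shCon group to find where this response differed from that to control EVs. Of all genes tested, 746 (5.22%) were higher and 501 (3.51%) lower after shCr EVs than after shCon EVs, and 108 of these differed by at least 2-fold. This comparison and the one with untreated cells share the shCr libraries, so each is given by its own values. The CPM of the shCr and shCon groups did not overlap in 4002 of all genes tested (28%). The largest differences below were again chosen among genes without overlap. The count of 1247 calls fell to 688, 632 and 666 without shCon library 1, 2 and 3 in turn and to 641 in a model of only these 2 groups. Of the genes called higher against untreated cells 83% made no call against shCon EVs, and of those called lower 84.8%. Has2 was one of the latter, at 13.02, 11.42 and 9.979 CPM after shCon EVs (log2 difference -0.22, adjusted p = 0.398 by edgeR).

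Ptgds was higher again, at 3.36, 3.02 and 4.29 CPM after shCon EVs against 22.03, 19.1 and 18 CPM (log2 difference 2.47, SE 0.13, adjusted p = 5.53e-07). Sparcl1, a matricellular glycoprotein, was at 4.69, 4.55 and 5.33 CPM after shCon EVs and 14.1, 15.5 and 15.9 CPM after shCr EVs (log2 difference 1.64, SE 0.18, adjusted p = 0.000142), with untreated cells at 5.13, 5.91 and 4.86 CPM. The shCon and untreated libraries of Sparcl1 overlapped in level and the shCr libraries stood above both. Agt, angiotensinogen, and Hhip were below untreated in both EV groups by level and least so after shCr EVs: Agt was at 3.94, 4.98 and 3.64 CPM after shCon EVs against 16.9, 16.7 and 14.5 CPM (log2 difference 1.93, SE 0.17, adjusted p = 2.49e-05), and Hhip at 4.04, 4.88 and 4.86 CPM against 17.6, 15.1 and 13.04 CPM (log2 difference 1.72, SE 0.16, adjusted p = 3.18e-05). Csf3, the granulocyte growth factor G-CSF (1.49), and Ggt5, a gamma-glutamyl transferase (1.49), completed the 6 largest rises. The 6 largest falls were of Mfap4, a microfibril-associated protein (-2.13), Aspn, asporin (-2.13), Slc40a1, the iron exporter ferroportin (-1.88), Myo7a, an unconventional myosin (-1.66), Fbln5, an elastic fibre organiser (-1.65), and Anxa8, an annexin (-1.55). Fbln5 was at 424, 412 and 410 CPM after shCon EVs and 132, 131 and 136 CPM after shCr EVs (log2 difference -1.65, SE 0.061, adjusted p = 3.65e-08), beside 139, 156 and 150 CPM in untreated cells. Anxa8 fell stepwise in level, from 82.3, 89.6 and 76.1 CPM untreated to 49.9, 47.6 and 47.8 CPM after shCon EVs and 16.4, 16.7 and 16.7 CPM after shCr EVs (log2 difference -1.55, SE 0.062, adjusted p = 4.78e-08).

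**Figure D4:**
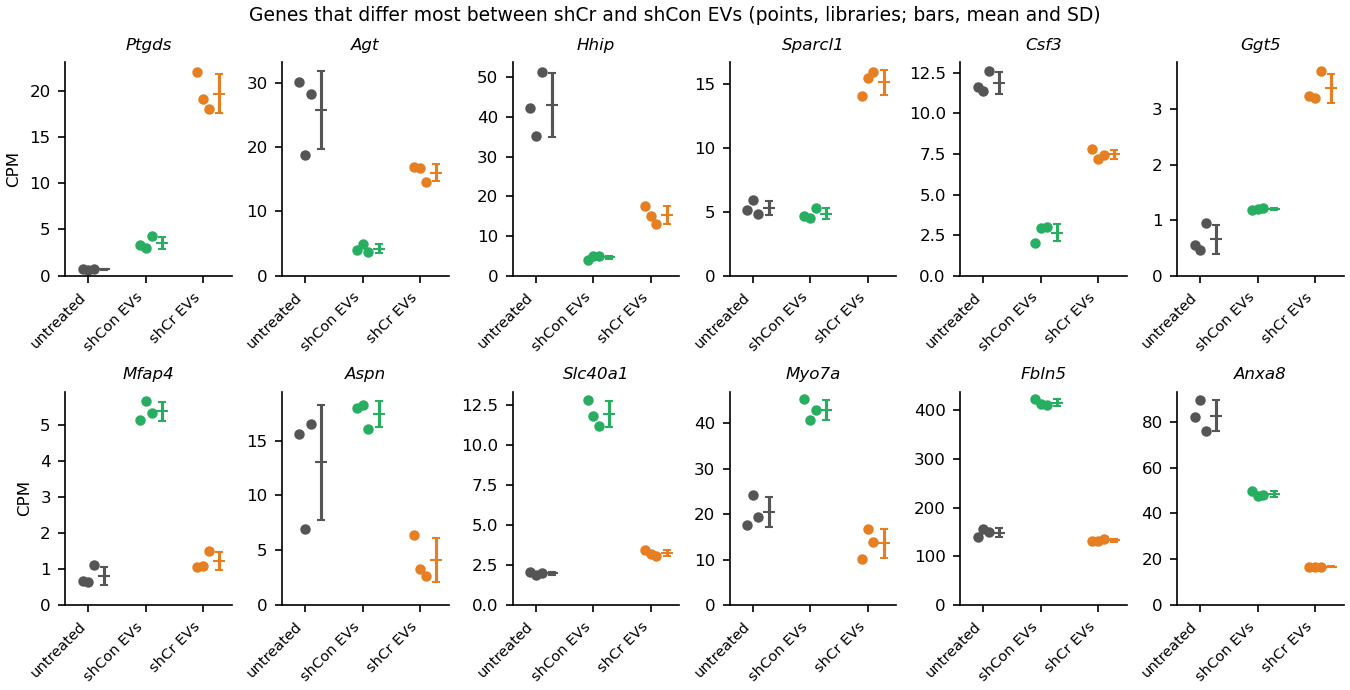
CPM of the 12 genes with the largest differences between shCr and shCon EVs, for 3 untreated (grey), 3 shCon (green) and 3 shCr (orange) libraries, with mean and SD. After shCr EVs Ptgds, Sparcl1 and Ggt5 lie above both other groups, and Anxa8 lies far below both. Myo7a, Aspn and Fbln5 also lie below both, narrowly so against untreated libraries, and Fbln5 was not called against untreated cells.

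By list, 4 of 47 interferon-stimulated genes were higher and 0 lower than after shCon EVs, near the shares of all genes tested given above, with a median difference of 0.06 on the log2 scale, and Isg15 differed by 0.18 (adjusted p = 0.497) without a call. A p-value that misses the threshold does not show that the levels were alike. Of 45 mitosis genes 21 were lower than after shCon EVs, with a median of -0.35, as in Mki67 (23.5, 25.5 and 23.9 CPM after shCon EVs, log2 difference -0.71, adjusted p = 0.00275), and of 44 replication genes 2 were lower. Sterol genes were higher in 10 of 30 (6 without shCon library 1), among them Tm7sf2 (120, 126 and 131 CPM after shCon EVs, log2 difference 0.56, adjusted p = 0.000554). ATF4 list genes were lower in 11 of 37 and higher in 1, among them Trib3 (88.9, 89.2 and 92.98 CPM after shCon EVs, log2 difference -0.71, adjusted p = 0.00337), which thus rose less than with control EVs by level.

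Matrix and contractile genes were read next. Elastic fibre and lysyl oxidase genes were lower in 10 of 20 and higher in 2, collagens lower in 7 of 35 and higher in 2, and contractile genes lower in 7 of 28 and higher in 1. Fn1 was at 7312, 7281 and 7118 CPM after shCon EVs and 3245, 3721 and 3947 CPM after shCr EVs (log2 difference -0.99, SE 0.074, adjusted p = 7.46e-06). Col1a1 was at 6590, 6565 and 6516 CPM after shCon EVs and 2891, 3908 and 3797 CPM after shCr EVs (log2 difference -0.89, SE 0.091, adjusted p = 8.43e-05). In both genes the 3 shCon libraries lay above every other library described here. Acta2 was at 620, 625 and 651 CPM after shCon EVs against 377, 415 and 448 CPM (log2 difference -0.61, SE 0.061, adjusted p = 6.99e-05). The Id genes ran the opposite way: Id3 was at 9.55, 10.6 and 10.5 CPM after shCon EVs against 20.8, 22.8 and 23.03 CPM (log2 difference 1.12, SE 0.078, adjusted p = 5.17e-06), and Id2 differed by 1.10. Immediate-early genes were higher in 12 of 30 and lower in 0, and complement genes higher in 7 of 16, a count that was 2 without shCr library 2 and without each of the shCon libraries in turn. Nuclear-encoded respiratory genes were higher in 11 of 67, but in 2 without each of the shCon libraries in turn, in 7 without shCr library 1 and in 26 without shCr library 3.

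Reads of some named genes could be shared. More than 50% of the 31-base stretches of Ftl1, Gm43302, Ifit3 and Ifitm2 occur in transcripts of other genes, so their counts are uncertain. Exons of Aars, Acsl1, Acss2, Aspn, Axin2, C1s1, Ccnd1, Cdkn1a, Ces1a, Ddit3, Dnajb9, Elmo1, Fancd2, Fbn1, Fn1, Fst, Ftl1, Gadd45a, Has2, Hexa, Hhip, Hif1a, Hmgcs1, Hsp90b1, Icam1, Igfbp7, Irf7, Lamp1, Ltbp2, Mfap4, Nid2, P2rx3, Pdgfra, Pdia6, Plk1, Psmb8, Ptgfr, Ptgis, Ptgs1, Sqstm1, Srebf1, Tagln, Tap1, Timp3, Tk1, Tnc and Zfas1 overlap a transcript on the other strand in GENCODE M21, and whether strand was used in counting is not stated, so reads of these genes and of their antisense partners cannot be told apart.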

How the data were processed

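Bulk RNA was measured in 12 libraries. Per the labels' protocols, the kit kept strand and enriched polyadenylated transcripts. What the authors deposited is a single table of unscaled estimated counts by symbol, in which 39.8% of the values were not whole. The submitters' processing notes name featureCounts and mm39 without a role, and the use of strand is not given in the sources used here. Columns were matched to samples by name, those of the CrOE group by elimination. Spreadsheet-altered symbols stood in 27 rows (at most 0.259% of a library's counts), and none of them is named.

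The values were rounded to whole numbers, where the design had assumed raw counts. After filterByExpr, 14279 genes were tested with edgeR 4.0.16 (R 4.3.3, TMM scaling, quasi-likelihood F-test) in 1 model of all 12 libraries with 8 residual degrees of freedom, and p-values were adjusted by Benjamini-Hochberg. The SE of a log2 fold change is its size divided by the square root of F. The biological coefficient of variation was 8.9%. Floors of 3 counts cover counting error only. The model was tested on simulated data with known changes. That simulation had independent libraries, the same spread for all genes and far fewer changed genes than were called here. It therefore does not measure how reliable these calls are.

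The gene lists and genes were chosen with earlier results of these data known, and counts over a list are a description. Named genes were the 15 largest rises and falls and the 6 largest against shCon (calls without overlap, mean log2 CPM at least 1), up to 4 called genes per list and direction, genes chosen for their role, and cell type markers. Ccnb2, Cdc20 and E2f1 were named outside this rule after their values were seen. Promoter letters are from RefSeq (GRCm38.p6), and motif shares count the whole window of a gene, while printed stretches end at the start. Alternatives were median-of-ratios scaling, DESeq2 1.42.0, no filter, at least 10 counts in every library, a fold change of at least 2, a replicate block, only the 2 groups compared, no CrOE group, each library left out, and the mitochondrial share as a covariate.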

Additional observations from a re-analysis of the deposited data

Results flagged for a closer look

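Of 14279 genes tested, 44 had opposite calls against untreated cells in the 2 EV groups and also differed directly between these groups. Only 4 of the 44 are given, those already named for their size of change, role or cell type: Col1a1, Ctgf, Lox and Myo7a. Each was called below untreated after shCr EVs and above it after shCon EVs. Col1a1, a chain of type I collagen, was at a mean of 4535 ± 229 CPM (SD, n = 3) in untreated cells, 3532 ± 558 CPM after shCr EVs and 6557 ± 37.8 CPM after shCon EVs, and the log2 difference shCr minus shCon was -0.8926. Ctgf, a matricellular target of TGF-beta and YAP, was at 11.5, 7.66 and 15.7 CPM in the same order of groups, with a difference of -1.035. Lox, the enzyme that crosslinks collagen and elastin, was at 2135, 1845 and 2659 CPM, with a difference of -0.5274. Myo7a, an unconventional myosin, was at 20.4, 13.5 and 43.0 CPM, with a difference of -1.664. The genes were chosen for these differences, so the values are a description. In a model of only the 2 groups, Col1a1 (adjusted p = 0.0543) and Myo7a (0.0568) were not called against untreated cells by edgeR. Both contrasts with untreated cells share the untreated libraries.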

How the results depend on the processing

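The count of genes called against untreated cells was 5320. It was 897 with a fold change of at least 2, 4254 to 6698 with 1 library left out (6698 without shCr library 1), and 3754 to 5404 with the other scaling, DESeq2, the other count filters, only the 2 groups compared or no CrOE group. With the mitochondrial share as a covariate, chosen after seeing the data, it was 6641. The count against shCon EVs was 1247. It was 108 with a fold change of at least 2, 641 in a model of only these 2 groups, 2034 with the mitochondrial share as a covariate and 632 to 1396 with 1 library left out; the lowest values were 688, 632 and 666 without shCon library 1, 2 and 3. The cause was not tested. Of 442 named genes tested, 374 were called against untreated cells, 328 of them in every alternative that keeps the same threshold, 46 lost the call in at least 1, 31 others gained one and 0 changed sign. Against shCon EVs 142 were called, 90 in every alternative. Tdgf1, the gene of CRIPTO, had at most 3 counts in any untreated, shCr or shCon library, so its level in the recipient cells was not detectable at this depth.

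Same-numbered untreated and shCr libraries had deviations correlated at 0.315, 0.145 and -0.132, so the numbers were not taken as pairs, and untreated library 2 correlated best with shCr library 3 (0.35). With a replicate block the counts were 5529 against untreated cells and 1281 against shCon EVs.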
